A study of Caenorhabditis elegans with 10 samples.

Results

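The circRNA loci of the RasGAP genes *gap-2* and *gap-3* number 3 of the 141 loci in a table of back-splice junction counts from whole *Caenorhabditis elegans*. In back-splicing, the 3′ end of one exon is spliced backwards onto the 5′ end of the same exon or of one before it, which closes the RNA into a circle, and the joint is the back-splice junction (BSJ). The loci are every row of the table whose host gene is *gap-2* (2 loci) or *gap-3* (1 locus). The study's list of circRNAs holds 4 entries of *gap-2* and 1 of *gap-3*. Shares and sums of *gap-2* counts below therefore cover only its 2 counted loci. The host gene came from the study's list of circRNAs, through identical coordinates for 2 of the 3 loci and, for 1 *gap-2* locus, through an entry at a slightly shifted position whose span was equal to within 1 nt. These genes were selected on measured values, namely the difference in junction counts of *gap-2* between *nova-1* mutants and wild-type. Values of that comparison are therefore given as a description of these 3 loci, without a test.

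Wild-type animals were strain N2, variety Bristol. The mutants were strain VDL1105, *nova-1(tm6146)*, a single outcrossed strain that carries a deletion in *nova-1* in every tissue. *nova-1* encodes the worm relative of the mammalian NOVA proteins, which bind RNA in neurons and regulate splicing. Both groups were hermaphrodites collected on day 3 of adulthood after growth on *Escherichia coli* OP50, and both had been kept from the last larval stage on plates with 5-fluorodeoxyuridine (FUdR), which prevents progeny. Total RNA of whole animals was sequenced for 5 independent biological replicates of each genotype. No locus of *nova-1* is in the table, so the genotype labels were not checked on the deleted gene, and tissue markers could not be read from junction counts.

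RasGAPs are proteins that speed the hydrolysis of GTP by Ras and so return this small GTPase to its inactive state. In *C. elegans* the main Ras protein is LET-60, which acts through the LIN-45, MEK-2 and MPK-1 kinases in vulval induction, the germline and the nervous system. *gap-2* belongs to the family that includes mammalian SynGAP, a RasGAP of excitatory synapses, and it has many transcripts with different starts. *gap-3* is a further worm RasGAP. What is measured below is the circular RNA made from internal exons of these genes, not the protein or the linear mRNA, which was not analysed here.

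The 3 circles lie inside their genes. In the WBcel235 annotation, *gap-2* (WBGene00001516) is on the plus strand of chromosome X from 9472470 to 9516454, a length of 43985 nt with 16 transcripts. The table gives the first *gap-2* circle (ce11_new_1) as 9510460 to 9511097, a span of 638 nt. An annotated exon pair with the same span starts at 9510525 and ends at 9511162, which is 65 nt further along, and these are exons 9 (201 nt) and 10 (135 nt) of the 19 exons of transcript ZK899.8a.1. This locus is called the *gap-2* exon 9–10 circRNA. The table places the other *gap-2* circle (cel_circ_new_0007824) at 9496475 to 9498136, a span of 1662 nt. The exon pair of the same span runs from 9496541 to 9498202, 66 nt further along, and consists of exons 5 (221 nt) and 6 (92 nt) of the same transcript. It is called the *gap-2* exon 5–6 circRNA. The 2 circles share no exon and are 12.322 kb apart.

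*gap-3* (WBGene00021238) is on the minus strand of chromosome I from 1988246 to 2010525, a length of 22280 nt with 2 transcripts. Its circle (cel_circ_0000035) is given as 1999955 to 2001195, a span of 1241 nt, and differs by -2 nt from annotated exons 8 (129 nt), 9 (91 nt) and 10 (89 nt) of the 16 exons of Y20F4.3a.1. It is called the *gap-3* exon 8–10 circRNA. Such offsets were common in the table. Of 117 loci matched to exon edges, 12 had no offset, and the offset of the end ran from -3 to 120 nt. A match required the offsets of both edges to agree within 1 nt. That 114 of the matched loci had an equal offset at both edges is therefore not read as a result. Why the positions are offset was not tested, and coordinates were not converted.

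**Figure D1:**
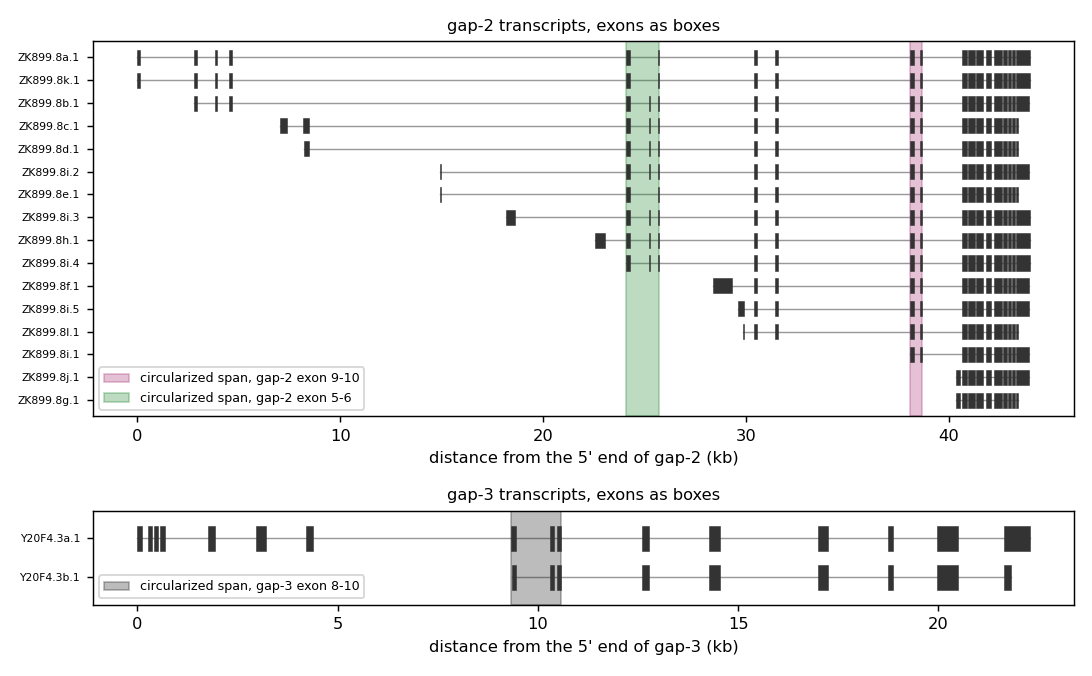
Annotated transcripts of *gap-2* (upper panel, 16 transcripts) and *gap-3* (lower panel, 2 transcripts), with exons as boxes, introns as lines and distance from the 5′ end of the gene in kb on the x axis. Shading marks the whole circularized span of each back-splice junction, introns included. The spans are *gap-2* exon 5–6 at 24.071 to 25.732 kb, *gap-2* exon 9–10 at 38.055 to 38.692 kb and *gap-3* exon 8–10 at 9.332 to 10.572 kb.

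Transcript structure differed between the *gap-2* circles. Both edges of the exon 9–10 circle are exon edges in 14 of the 16 *gap-2* transcripts, and the other 2 transcripts start downstream of it. The coding sequence covers both edges in 9 of them. All 14 transcripts give the same spliced length of 336 nt, and in 1 of them exon 9 is the first exon. The exon 5–6 circle has both edges in 9 of the 16 transcripts and lies upstream of the start of 6 others. In 6 of the 9 an additional exon of 60 nt, at 9497668 to 9497727, lies between exons 5 and 6, so the circle would be 373 nt with it and 313 nt without it. The junction is the same in both forms, so the counts do not separate them. The *gap-3* circle has both edges in 1 of the 2 transcripts, because the other starts within exon 8, and its spliced length is 309 nt. The median spliced length of the other matched loci was 402.5 nt, with a median of 2 exons.

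All 3 circles were flanked by introns that are long for this genome, in which the median of 116631 annotated introns is 66 nt. The introns before and after the exon 9–10 circle are 6493 and 1968 nt, at or above 99.6% and 97.2% of annotated introns. The intron after the exon 5–6 circle is 4638 nt (99.2%), and the one before it depends on the transcript start, with a median of 15621 nt and a range of 1023 to 19396 nt. For *gap-3* they are 4936 nt (99.3%) before and 2027 nt (97.3%) after the circle. Long flanking introns were a feature of the whole table, since the medians over the other matched loci were 1334 nt before and 1345 nt after the circle. Of 109 other loci, 10 had a longer upstream intron than the exon 9–10 circle, 2 a longer one than the exon 5–6 circle and 16 a longer one than the *gap-3* circle. For the downstream intron, these numbers were 40, 11 and 39 of 114 other loci.

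The libraries held 7955 to 15014 circRNA junction counts. Wild-type replicate 1 stood apart, with the highest total and a TMM factor of 0.70 where the other 9 libraries had 0.92 to 1.22. TMM (trimmed mean of M-values) is a scaling that sets libraries against each other by the bulk of their loci. Normalized counts below are counts divided by the TMM-scaled library and multiplied by the mean scaled library of 9421 counts. Every junction was counted on a scaffold of the same length, 200 nt, so no length correction was made between loci. Whether reads map equally well to each junction was not tested. The lowest count at any of the 3 loci was 14, so none was at 0 in any library.

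The *gap-2* exon 9–10 circRNA was the highest of the 3 circles in *nova-1* mutants by a wide margin, and had 37 to 76 counts in wild-type against 233 to 392 in the mutants. In normalized counts the wild-type replicates 1 to 5 were at 48.5, 41.8, 48.9, 44.1 and 78.8. The *nova-1* replicates 1 to 5 were at 299, 388, 350, 243 and 340 normalized counts. The lowest mutant replicate was therefore above the highest wild-type replicate, and the groups did not overlap. The wild-type mean was 52.4 ± 15.04 (SD, n = 5), and that of the mutants was 324 ± 55.3 (SD, n = 5). The fitted log2FC, *nova-1* over wild-type, was 2.62 (SE 0.26, 95% interval 2.11 to 3.14), which is 6.16-fold. By count within a library it ranked between 17 and 33 of the 141 loci in wild-type and at 4 or 5 in the mutants. Of all circRNA counts it made up 0.532% ± 0.233 in wild-type (SD, n = 5), and 3.74% ± 0.749 in *nova-1* (SD, n = 5).

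The *gap-2* exon 5–6 circRNA had much the same level in both genotypes. Its normalized counts in wild-type replicates 1 to 5 were 27.8, 26.9, 22.1, 16.7 and 17.6. In *nova-1* replicates 1 to 5 they were 16.4, 30.9, 20.5, 17.7 and 24.0. The ranges overlapped almost entirely, the mutants holding both the lowest and the highest value. The wild-type mean was 22.2 ± 5.12 (SD, n = 5), set against 21.9 ± 5.84 (SD, n = 5) in the mutants, a log2FC of -0.033 (SE 0.31). The 95% interval of -0.64 to 0.57 leaves room for changes of moderate size in either direction at 14 to 31 counts per library.

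The *gap-3* exon 8–10 circRNA was lower on average in the mutants, with overlapping groups. Wild-type replicates 1 to 5 had 25.1, 52.8, 71.1, 64.4 and 82.9 normalized counts. The *nova-1* replicates 1 to 5 had 40.9, 55.9, 40.2, 40.7 and 31.7. Wild-type replicate 1 was below every mutant replicate, wild-type replicate 2 lay within the mutant range, and the other 3 wild-type replicates were above it. Wild-type averaged 59.3 ± 22.0 (SD, n = 5) and the mutants 41.9 ± 8.75 (SD, n = 5), with a log2FC of -0.49 (SE 0.28, 95% interval -1.04 to 0.051). Without wild-type replicate 1, the library that stood apart, the log2FC was -0.69 (SE 0.23). In the same fit the exon 9–10 circle was at 2.59 (SE 0.22) and the exon 5–6 circle at 0.064 (SE 0.33).

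**Figure D2:**
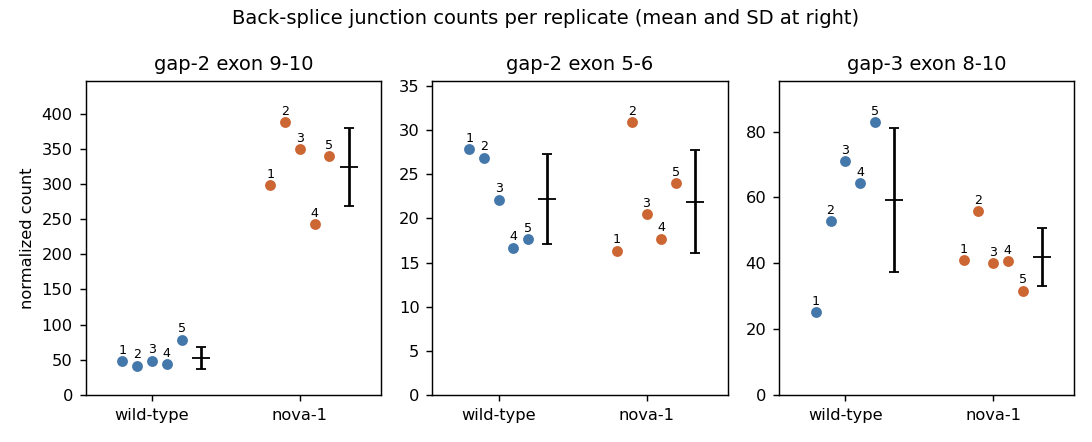
Normalized back-splice junction counts (y axis, from 0, with a separate scale per panel) of the 3 circRNAs in each replicate, numbered 1 to 5, of wild-type and *nova-1* animals; the bar at the right of each group is the mean with the SD. Exon 9–10 values lie at 41.8 to 78.8 in the wild-type replicates and at 243 to 388 in the mutants, while both other circles overlap between genotypes.

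Over the whole table, a locus was called when its absolute log2FC was above 0.5 and its Benjamini–Hochberg adjusted *P* in the edgeR quasi-likelihood test was under 0.05. This rule called 40 of the 141 loci (28.4%), of which 22 were higher in *nova-1* (15.6% of the 141) and 18 lower. One of the 3 RasGAP loci, the exon 9–10 circle, met it with all libraries, and 2 did without wild-type replicate 1, when *gap-3* passed as well. The fit without that replicate called 48 of the 141 loci. Groups that did not overlap, with all mutants above all wild-types, occurred at 21 of the 141 loci (14.9%), and 1 of the 3 RasGAP loci was among them. The comparison that gives these counts is the one by which the genes were picked. The exon 9–10 circle had the highest log2FC of the table, followed by a circle of *mbk-2*, a DYRK family kinase, at 1.99. The exon 5–6 and *gap-3* circles had ranks 62 and 100 in the same order, and the median log2FC of all loci was -0.095. In a bulk sample of whole animals, a circle made in more cells and a circle made at more copies per cell cannot be told apart.

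**Figure D3:**
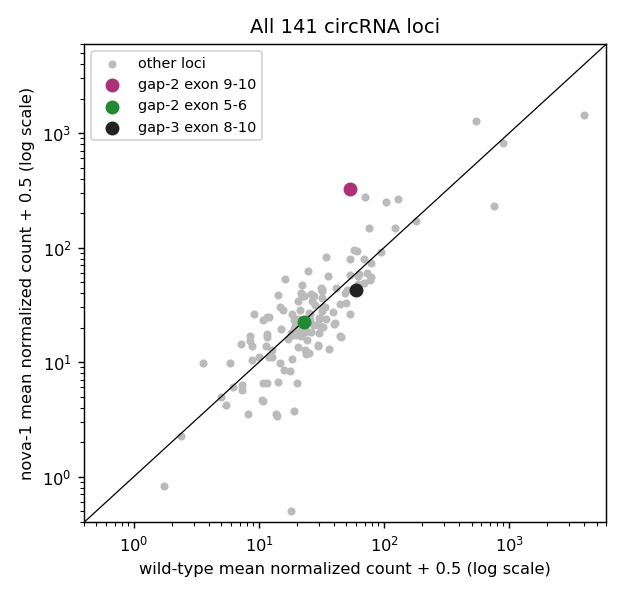
Mean normalized count plus 0.5 of each of the 141 loci in wild-type (x axis) and *nova-1* (y axis), both on log scales, with the line of equality. The exon 9–10 circle of *gap-2* is the coloured point far above the line (52.4 against 324), and the exon 5–6 circle (22.2 against 21.9) and *gap-3* (59.3 against 41.9) lie close to it.

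Because both *gap-2* loci were counted in the same libraries, the share of each in the counts of these loci needs no library size. In wild-type replicate 1 the exon 9–10 circle held 63.5% of 85 *gap-2* counts (95% Wilson interval 52.9 to 73.0). It held 60.9% of 69 (49.1 to 71.5) in replicate 2 and 68.9% of 61 (56.4 to 79.1) in replicate 3. Replicate 4 had 72.5% of 51 (59.1 to 82.9) and replicate 5 had 81.7% of 93 (72.7 to 88.3). The wild-type intervals were wide and overlapped in every pair of replicates except 2 and 5.

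In the mutants the shares were closer together and rested on more counts. They were 94.8% of 385 (92.1 to 96.6), 92.6% of 420 (89.7 to 94.8) and 94.5% of 415 (91.8 to 96.3) in *nova-1* replicates 1 to 3. Replicates 4 and 5 had 93.2% of 250 (89.4 to 95.7) and 93.4% of 333 (90.2 to 95.6). No mutant interval reached the interval of any wild-type replicate. The wild-type share averaged 69.5% ± 8.20 (SD, n = 5), that of *nova-1* 93.7% ± 0.909 (SD, n = 5), a difference of 24.2 percentage points. These intervals cover counting error only.

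**Figure D4:**
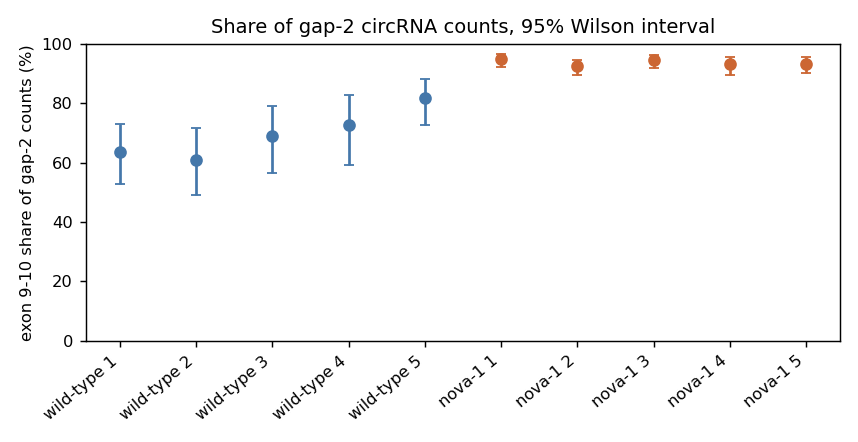
Share of the exon 9–10 circle in the *gap-2* circRNA counts (y axis, percent, from 0) in each of the 10 libraries, with 95% Wilson intervals. Wild-type libraries lie between 60.9% and 81.7% and *nova-1* libraries between 92.6% and 94.8%.

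Expressed as a ratio of counts, the exon 9–10 circle was 1.74, 1.56, 2.21, 2.64 and 4.47 times the exon 5–6 circle in wild-type replicates 1 to 5, a mean of 2.52 ± 1.17 (SD, n = 5). In *nova-1* the ratio was 12.5 to 18.3, with a mean of 15.1 ± 2.40 (SD, n = 5). The fitted log2FC of the 2 circles differed by 2.66. With both loci added together, *gap-2* averaged 74.7 ± 13.4 normalized counts in the wild-type replicates (SD, n = 5) and 346 ± 60.2 in the mutants (SD, n = 5). The log2FC of this sum was 2.21 (SE 0.25), so the sum of the counted loci followed the exon 9–10 circle.

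The balance between the 2 genes is given as a description. Of the counts of all 3 loci, *gap-3* held 43.2% ± 10.8 in wild-type animals (SD, n = 5) but 10.9% ± 2.09 in *nova-1* (SD, n = 5). The exon 9–10 counts are in the denominator of this share. Its fall therefore largely repeats their rise and is not a separate result. The ratio that leaves out the exon 9–10 circle depended on wild-type replicate 1. Counts of the exon 5–6 circle were 0.48 ± 0.368 times those of *gap-3* in wild-type (SD, n = 5) and 0.532 ± 0.140 times in the mutants (SD, n = 5). Replicate 1 was at 1.11, while the other 4 were at 0.2125 to 0.509 with a mean of 0.323 ± 0.131 (SD, n = 4), and 3 of these 4 lay below every mutant replicate.

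The order of the circles in wild-type is given as log2(normalized count + 0.5) of loci within the same library, as a description, because these wild-type values are among those on which *gap-2* was selected. The exon 5–6 circle was the lowest on average. It was below the exon 9–10 circle in 5 of 5 libraries, by 1.21 ± 0.590 on the log2 scale (SD, n = 5), and below *gap-3* in 4 of 5 libraries, by 1.32 ± 0.939 (SD, n = 5). *gap-3* was above the exon 9–10 circle in 4 of 5 libraries, by a mean log2 difference of 0.11 ± 0.613 (SD, n = 5), which is within the spread. This last difference was 0.37 without wild-type replicate 1, 0.053 without replicate 2, 0.0030 without replicate 3 and 0.0014 without replicate 4, so the order of *gap-3* and the exon 9–10 circle is not settled by these libraries. A sign-flip permutation test over 5 libraries cannot give a p below 0.0625, so no p is read from it. In *nova-1* the order of the means was exon 9–10, *gap-3* and exon 5–6.

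The spread between replicates was as follows. In wild-type, the coefficient of variation of normalized counts was 28.7% for the exon 9–10 circle, 23.03% for the exon 5–6 circle and 37.1% for *gap-3*. Counting alone would give 14.1%, 21.5% and 13.5% at their mean counts. In *nova-1* the spreads were 17.1%, 26.6% and 20.9%, where counting would give 5.44%, 21.0% and 15.1%. These are independent biological replicates, so their spread holds biological variation as well as counting error. Over the 123 loci with a mean count of at least 10, the median spread was 34.3% in wild-type and 27.9% in *nova-1*.

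Patterns across the 10 libraries were compared by Pearson's r of log2(normalized count + 0.5), as a description in which the points share libraries and genotype. The 3 circles did not follow each other. The r was -0.025 between both *gap-2* circles, -0.33 between the exon 9–10 circle and *gap-3*, and -0.29 between the exon 5–6 circle and *gap-3*. After the genotype means were taken away, these values were 0.087, 0.38 and -0.34.

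The loci most like the exon 9–10 circle were circles of *gld-2* (cel_circ_0000075, r = 0.961), a cytoplasmic poly(A) polymerase of the germline, of *mbk-2* (cel_circ_0000565, r = 0.910) and of *Y53C10A.5* (ce11_new_9, r = 0.908). This likeness came mainly from the genotypes, because on deviations from the genotype means the highest r was 0.681, with a circle of *sma-9*, a zinc finger protein of TGF-β signalling. Closest to the exon 5–6 circle were *T04C4.1* (r = 0.750), *lev-11*, which encodes tropomyosin (r = 0.705), and *Y53F4B.39* (r = 0.687). For *gap-3* they were *pqn-41* (cel_circ_0000908, r = 0.825), *afd-1*, the worm afadin (r = 0.791), and *Y105E8A.25* (r = 0.758). The *gap-3* pattern was shared within the genotypes too, with r = 0.908 for *pqn-41* on the deviations, where wild-type replicate 1 was the low library for *gap-3*.

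Other genes of the Ras pathway were looked up in the table. Of a list of 40 genes of Ras to ERK signalling, 2 had loci, 7 in all. The whole table had 117 host genes, and their share of all annotated genes was not computed. The list was also chosen with earlier results of these data known, so the number of genes with loci is not read as a result. The exchange factor *sos-1*, which loads Ras with GTP, had no locus in the table. The 5 loci of *afd-1*, a scaffold protein of cell junctions that binds Ras family GTPases in mammals, had log2FC of -0.35 to 0.12, and none was called. The *afd-1* loci at 2172004 to 2174984 and at 2172005 to 2174985 match the same exon edges, so they are not independent. The same holds for those at 2173754 to 2174984 and at 2173755 to 2174985. Both loci of *lin-1*, an ETS transcription factor at the end of the LET-60 to MPK-1 pathway, rose in *nova-1*. They differ by 1 nt and carry the same circRNA name (cel_circ_0000491), so reads may be split between them and they are not independent.

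The *lin-1* locus at 2278891 to 2279180 on chromosome IV rose from 15.1 ± 6.88 to 27.7 ± 4.76 normalized counts (SD, n = 5), a log2FC of 0.89 (SE 0.33, edgeR adjusted *P* = 0.0458). This call was lost in 10 of 18 alternatives, whose adjusted *P* ran from 0.00179, with both *lin-1* loci summed, to 0.128. Among them was the loss of wild-type replicate 2 or 5 or of *nova-1* replicate 1, 2, 3 or 5. The locus at 2278892 to 2279181 rose from 8.64 ± 2.32 to 25.97 ± 10.5 (SD, n = 5), a log2FC of 1.58 (SE 0.38, edgeR adjusted *P* = 0.00286), and its call held in all 17 alternatives that could be run for it, with adjusted *P* from 0.00098 to 0.019. Over the 7 loci of the list, 2 were called, both of them the same *lin-1* circle, beside 28.4% of all loci. The median log2FC was -0.0013, beside -0.095 for all loci.

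A further list held 9 regulators of GTPases taken from the host genes in the study's list of circRNAs. Because each was chosen as a circRNA host, the number with loci in the table is not read as a result. Of the 9 genes, 6 had loci, 12 in all. Of these loci, 5 were called, 1 higher and 4 lower in *nova-1*, beside 28.4% of all loci called, 22 of the 141 higher and 18 lower. The median log2FC of the 12 was -0.44, against -0.095 for all loci. The list includes *rgs-4*, whose family acts on heterotrimeric G proteins and not on small GTPases, with 1 locus (log2FC 0.47, SE 0.29, not called). Without it, an alternative chosen after seeing the data, 5 of 11 loci were called and the median was -0.46. Both loci of *denn-4*, from the DENN family of Rab exchange factors, had log2FC of -0.21 and 0.41 and were not called. The *tbc-17* circle (cel_circ_0001391), from a gene of the TBC family whose members act as GAPs of Rab GTPases, rose from 59.9 ± 9.84 to 93.4 ± 10.4 normalized counts (SD, n = 5; log2FC 0.64, SE 0.22, edgeR adjusted *P* = 0.0304). Of 2 *tbc-9* circles, from the same family, cel_circ_0000567 fell from 19.8 ± 12.5 to 6.12 ± 2.45 (SD, n = 5; log2FC -1.71, SE 0.46, edgeR adjusted *P* = 0.00589), while cel_circ_0000566 was not called (log2FC -0.41, SE 0.41, edgeR adjusted *P* = 0.498).

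The *rin-1* circle (cel_circ_0001201), from the worm member of the RIN family of Rab5 exchange factors, fell from 44.2 ± 5.30 to 16.5 ± 9.11 (SD, n = 5; log2FC -1.43, SE 0.32, edgeR adjusted *P* = 0.0012). The gene *Y105E8A.25*, a RhoGEF, had 5 loci, of which 2 fell and the other 3 were not called, at log2FC of -0.51 to -0.098. Those that fell were cel_circ_0000162 (log2FC -0.90, SE 0.32, edgeR adjusted *P* = 0.0326) and cel_circ_new_0000503 (log2FC -1.52, SE 0.39, edgeR adjusted *P* = 0.00407). The call of *tbc-17* was lost in 9 of 18 alternatives, among them the loss of wild-type replicate 2, 4 or 5 or of *nova-1* replicate 1, 2, 3 or 5 (adjusted *P* 0.0116 to 0.0838). That of cel_circ_0000162 was lost in 6 of 18, among them the loss of wild-type replicate 1 or 5 or of *nova-1* replicate 1, 2 or 5 (adjusted *P* 0.00925 to 0.169). The calls of cel_circ_0000567 of *tbc-9*, of *rin-1* and of cel_circ_new_0000503 held in all 18. The size of the last rested partly on wild-type replicate 1, which was at 78.1 normalized counts where the wild-type mean was 35.6 ± 25.1 (SD, n = 5), and its log2FC without that library was -0.99 (SE 0.36). Wild-type replicate 1 was also the highest library for cel_circ_0000567 of *tbc-9*, at 41.3 normalized counts beside a wild-type mean of 19.8 ± 12.5 (SD, n = 5). The log2FC of that *tbc-9* circle was -1.93 to -1.24 when 1 replicate was left out. As in *gap-2*, circles of 1 gene could differ in their call, as they did in *Y105E8A.25*. Whether the loci of a gene differ from each other was not tested in any of these genes, *gap-2* included.

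**Figure D5:**
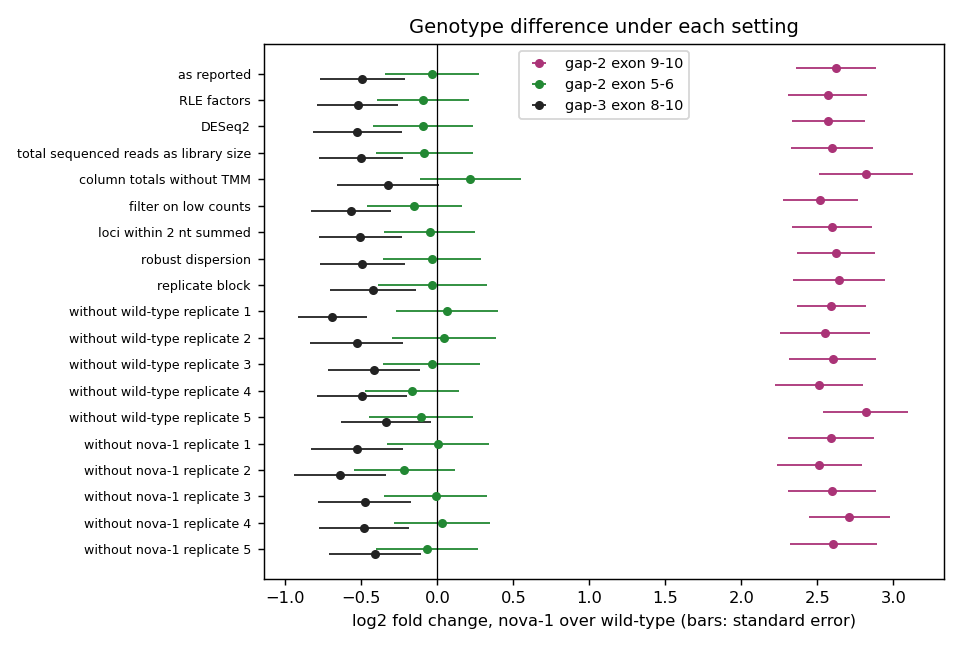
Log2FC of the 3 circRNAs, *nova-1* over wild-type (x axis), with standard errors as bars, as reported and under each of 18 alternatives (y axis). The exon 9–10 circle stayed at 2.51 to 2.82, the exon 5–6 circle at -0.22 to 0.22 and *gap-3* at -0.69 to -0.33.

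The order of the 3 loci by log2FC was the same under every alternative tried. The exon 9–10 circle kept the highest log2FC of the 3 and *gap-3* the lowest in all 18, as the plot of alternatives shows. Scaling by column totals without TMM placed the loci higher in *nova-1* on the whole, moving the median log2FC of the table from -0.095 to 0.14. Of 39 loci then called, 29 were higher (74.4%, against 55.0% with TMM), and the 3 loci stood at 2.82, 0.22 and -0.33. The sign of the exon 5–6 circle thus depended on the scaling, with a value near 0 in each case.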

How the data were processed

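CircRNA back-splice junctions were measured in 5 wild-type and 5 *nova-1* libraries. The authors deposited raw counts per junction, which are not normalized and not pooled. Per the study's methods and the submitters' processing notes, HISAT2 v2.2.1 placed the reads on the WBcel235/ce11 genome, unmapped reads were realigned with BWA v0.7.18, and loci were predicted with CIRI2 v2.0.6 and dropped below 12 junction reads. Reads were then mapped to 200-nt scaffolds with Bowtie2 v2.5.4, duplicates were removed with Picard and counts were made with featureCounts v2.0.1. A locus that CIRI2 did not predict therefore has no count here. The study reported more circRNAs than the 141 loci counted here. Absence from the table thus does not show that a circle was not predicted.

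Host genes were linked by identical coordinates (112 loci), or by a single entry of the same chromosome whose start lay at most 150 nt away and whose span differed by at most 1 nt (26 loci). Exons are those of the Ensembl annotation of WBcel235, matched at equal span. All 141 loci were fitted with edgeR v4.0.16 in R v4.3.3 (glmQLFit and glmQLFTest, TMM on column totals, no filter and no covariate), with Benjamini–Hochberg adjustment over the 141. Standard errors of log2FC are the absolute log2FC divided by the square root of *F*. Intervals are at 95%, and shares have Wilson intervals. The sign-flip test enumerated every sign pattern, and Wilson intervals came from SciPy v1.17.1. Simulated data had the libraries of these samples, a single dispersion common to all loci, and 30 of 141 loci changed by a log2FC of 1.5 in either direction. There edgeR recovered 28 of the 30 with 0 false calls among the other 111, and DESeq2 v1.42.0 recovered 28 with 0. Real loci differ in spread, so this does not give the rate of false calls among the loci called here.

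Library totals of 7955 to 15014 counts limit the precision at loci with few counts. Named are all *gap-2* and *gap-3* loci, called loci of both gene lists, *sos-1*, and the 3 loci of highest r per circle; *afd-1*, *sma-9*, *rgs-4*, *denn-4* and the second *tbc-9* locus were named after their values were seen. The genes, the lists and the tests were chosen with earlier results of these data known. Alternative settings were DESeq2, RLE factors, library sizes from the total of sequenced reads, no TMM, a filter on low counts, summing loci within 2 nt, robust dispersion, a replicate block and leaving out each replicate in turn. Linear RNA, RT-qPCR and lifespan data were not analysed here.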

Additional observations from a re-analysis of the deposited data

Results flagged for a closer look

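Among the 10 groups of 5 replicates that were checked for a value far from the rest (normalized counts of the 3 circRNAs and of *gap-2* summed, and the exon 9–10 share), 1 stood out. The *gap-2* exon 9–10 circRNA was at 78.8 normalized counts in wild-type replicate 5, while the other 4 wild-type replicates were at 41.8 to 48.9. The cut-off was a gap of 0.71 of the range of the group (Dixon's ratio), which chance passes in about 1 of 20 groups. With 10 groups checked, at least 1 flag by chance is more likely than that, and some of the groups share counts. Without this replicate the log2FC of the circRNA was 2.82 in place of 2.62, and that of *gap-3*, whose highest wild-type value of 82.9 came from the same library, was -0.34 in place of -0.49.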

How the results depend on the processing

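The log2FC of the 3 circRNAs, of *gap-2* summed and the difference between the *gap-2* circRNAs moved by less than the replicate SD in each alternative that was run. Leaving out 1 replicate gave 2.51 to 2.82 for exon 9–10, -0.22 to 0.064 for exon 5–6, -0.69 to -0.34 for *gap-3*, and a share difference of 22.0 to 27.2 percentage points. With *gap-3* counts added to the denominator, that difference was 44.3 points. Calls in the Ras to ERK list were 1 in place of 2 with RLE factors, the filter on low counts, loci within 2 nt summed, robust dispersion and the replicate block, and 1 to 2 when a replicate was left out. Calls among small GTPase regulators were 3 to 5 when a replicate was left out. On deviations from the genotype means, the highest r was 0.681 for exon 9–10 and 0.908 for *gap-3*. Apart from the summing, which merges the *lin-1* loci, the cause was not tested. Calls over all loci were 31 to 48 when a replicate was left out, 48 of them without wild-type replicate 1, and 57 at an unadjusted *P*.

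Replicate numbers 1 to 5 occur in both genotypes, but same-numbered libraries did not deviate together (r from -0.15 to 0.20), and 1 of 5 wild-type libraries correlated best with its own number. With the replicate block, the log2FC was 2.64 for exon 9–10, -0.034 for exon 5–6 and -0.43 for *gap-3*, and 31 loci were called. The planned count of NOVA motifs near the junctions was not run, because no genome sequence was used here. At 14 to 31 counts per library, small changes of the exon 5–6 circRNA are not detectable.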
